A study of Mus musculus with 10 samples.

Results

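The genes described here encode the contractile apparatus of skeletal muscle, its calcium machinery and a few muscle energy and assembly proteins, and they were followed in white fat. The list of 40 genes was drawn up by name with earlier results of these data known. All 40 were measured among the 19659 genes of the arrays. Each gene was represented by a probe set that names it alone and has a value on every array. One member, Trdn, had several such probe sets, and the one with the highest mean was used. The fat came from the inguinal-femoral subcutaneous depot of 10 untreated female F2 mice aged 14 weeks and fed chow. FF mice carried 2 Fat-line alleles at Fob3a, an obesity locus on chromosome 15. VV mice carried 2 alleles of the V line, a congenic line derived by repeated backcrossing to the Fat line, although the sample source label calls that allele Lean-line. There were 5 mice in each group, each on a one-colour array of its own. Whole tissue was extracted, so that more muscle cells and more of a transcript per cell cannot be told apart, for these genes as for any other.

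A sarcomere is the repeating unit of a muscle fibre, in which myosin thick filaments slide along actin thin filaments. Thin filaments are anchored at the Z disc and thick filaments are crosslinked at the M band, with titin running between the Z disc and the M band and nebulin running along the thin filament. An action potential opens the ryanodine receptor, calcium leaves the sarcoplasmic reticulum and binds troponin C, and the SERCA pump returns it. Fast and slow fibres use different paralogs of myosin, troponin and calcium proteins. Adipocytes have no sarcomeres, and the inguinal-femoral depot lies beside the muscles of the leg and body wall.

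Many muscle genes are controlled by myogenic factors that bind E-boxes, and promoters of the members are shown here as background. Their part in the level of any mouse was not tested. RefSeq windows from 250 bases before to 50 bases after the start (assembly GRCm38.p6) were held for 30 of the 40 members. The motif CAGCTG, 1 form of the E-box, which reads the same on both strands and was the single form searched, occurred in 13 of these 30 genes, or 43.3%, against 18.3% of 27025 genes with a window. TATAAA, searched on both strands, occurred in 8 of the 30, or 26.7%, against 15.7%. The letters of the 2 motifs do not let their matches overlap, and a match is a description of letters and not of a bound site. Ttn is shown because FF replicate 1 exceeded the other mice most for it. Atp2a1 and Myh4 are shown for their height in VV replicate 1 and were chosen after their values were seen. Capitals mark CAGCTG and TATAAA, the latter appearing as TTTATA where it lies on the other strand. The windows lie at chr2:76982498-76982797 on the minus strand for Ttn, at chr7:126463024-126463323 on the minus strand for Atp2a1 and at chr11:67237562-67237861 on the plus strand for Myh4, and each is printed 5′ to 3′ along its gene.
Ttn: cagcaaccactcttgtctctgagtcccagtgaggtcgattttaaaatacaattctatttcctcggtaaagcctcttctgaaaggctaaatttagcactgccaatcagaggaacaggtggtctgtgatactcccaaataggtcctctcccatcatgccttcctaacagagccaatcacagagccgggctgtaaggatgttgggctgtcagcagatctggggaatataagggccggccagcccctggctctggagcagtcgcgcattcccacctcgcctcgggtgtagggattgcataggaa
Atp2a1: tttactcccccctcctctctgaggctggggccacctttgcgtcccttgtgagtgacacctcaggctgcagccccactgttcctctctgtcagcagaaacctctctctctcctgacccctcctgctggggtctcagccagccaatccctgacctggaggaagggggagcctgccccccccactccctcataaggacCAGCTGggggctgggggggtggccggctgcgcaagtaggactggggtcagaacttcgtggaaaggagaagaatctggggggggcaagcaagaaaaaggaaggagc
Myh4: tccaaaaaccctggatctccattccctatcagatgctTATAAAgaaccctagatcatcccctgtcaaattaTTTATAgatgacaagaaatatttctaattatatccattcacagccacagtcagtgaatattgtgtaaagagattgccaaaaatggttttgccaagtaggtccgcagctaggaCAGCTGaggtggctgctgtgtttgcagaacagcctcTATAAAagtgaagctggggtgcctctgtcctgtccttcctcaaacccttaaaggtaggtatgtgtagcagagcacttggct
The Ttn window held neither motif, the Atp2a1 window held 1 CAGCTG, and the Myh4 window held 1 CAGCTG and 3 copies of TATAAA. Among the 15 members with a window in which FF replicate 1 led by over 1 log2 unit, 6 held CAGCTG. Of the 15 other members with a window, 7 held it.

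Values are log2 intensities normalised between arrays by the submitters, with array medians from 7.15 to 7.21. A step of 1 is 2-fold. Adipoq, the adipocyte hormone adiponectin, lay between 13.25 and 13.44 in every mouse, where the highest value of the arrays was 14.22. None of 12 mature adipocyte genes passed the test between genotypes. These values do not measure RNA of other tissues in a sample. Before any comparison, 2 mice stood apart. FF replicate 1, the mouse set aside by the rule that defined this gene list, was high for muscle genes. VV replicate 1 was high for liver genes, with a mean deviation over 14 liver genes of 3.38 log2 units from each gene's mean against 0.48 in VV replicate 2 and -0.68 to -0.27 in the other 8 mice. Each comparison is therefore given with all mice and without FF replicate 1.

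FF replicate 1 had the highest level of all 10 mice for 37 of the 40 members, where it was highest for 14.1% of all genes. It led the next mouse by over 1 log2 unit for 29 genes in all, 0.148% of those measured, and 22 of the 29 were members (55.0% of the members and 75.9% of the 29). No member lay that far above the rest in any other mouse, although VV replicate 1 did so for 244 genes. Since the mouse was named with these data known, its height is a description. At the edge of that limit, Tnnc1 exceeded the next mouse by 1.01 and Acta1 by 1.02, whereas Cacna1s at 1.0 and Mb at 0.99 fell just short.

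**Figure D1:**
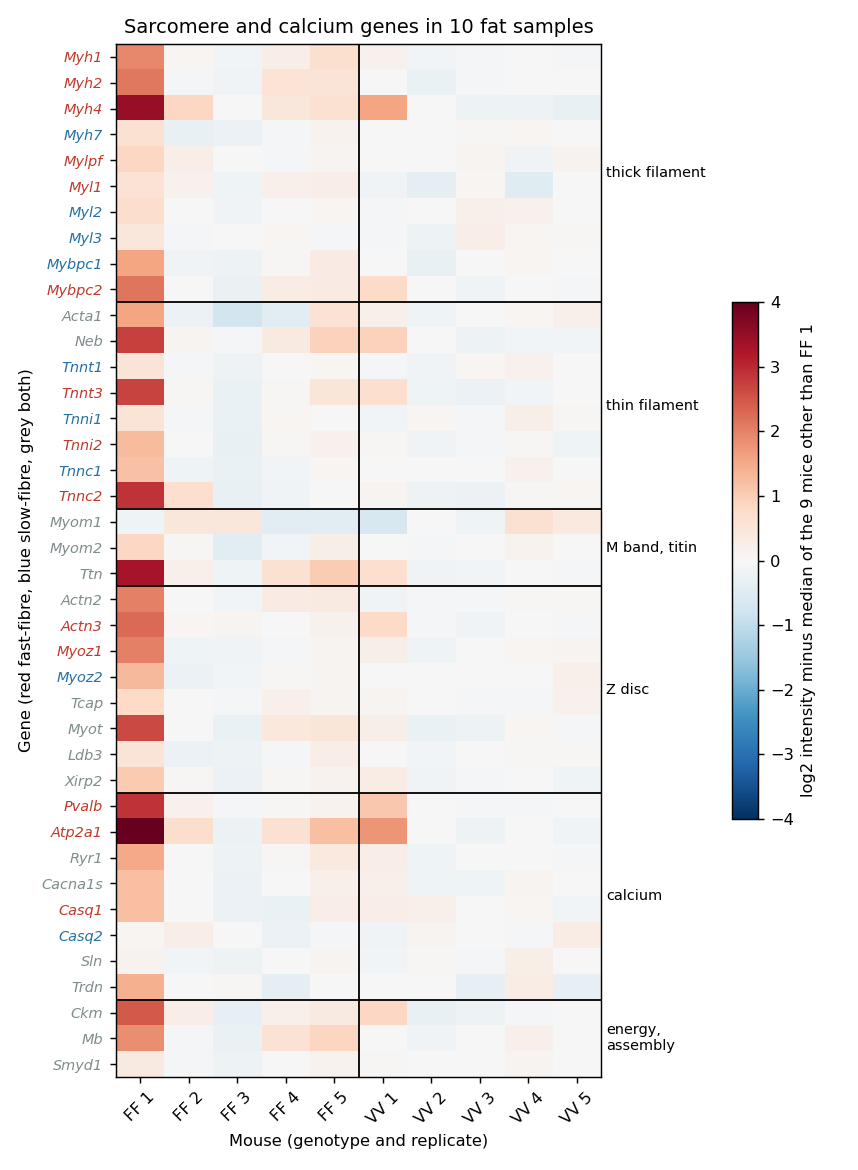
Log2 intensity of each of the 40 genes in each of the 10 mice, minus the median of the 9 mice other than FF replicate 1, with rows ordered by role. The FF replicate 1 column is red in nearly every row, by up to 3.98 for Atp2a1, and the paler red cells of VV replicate 1 include Atp2a1, Myh4, Pvalb, Neb and Ckm.

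By fibre type, the height of FF replicate 1 had ranges that overlapped, and no difference between the types was tested. All 14 genes assigned here to fast fibres were highest in it, 11 of them by over 1 log2 unit, with a median excess over the next mouse of 1.53 and a range of 0.32 to 2.23. Of 9 slow-fibre genes 8 were highest in it, 3 by over 1 unit, with a median excess of 0.47 and a range of -0.24 to 1.26. The 17 genes used in both fibre types had 15 highest and 8 over 1 unit, with a median of 1.0. The mean over the other 9 mice was below that of the median gene (7.54) for 30 of the 40 members, and the part of background intensity in the size of these excesses was not tested. Fibre types were assigned from textbook knowledge.

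**Figure D2:**
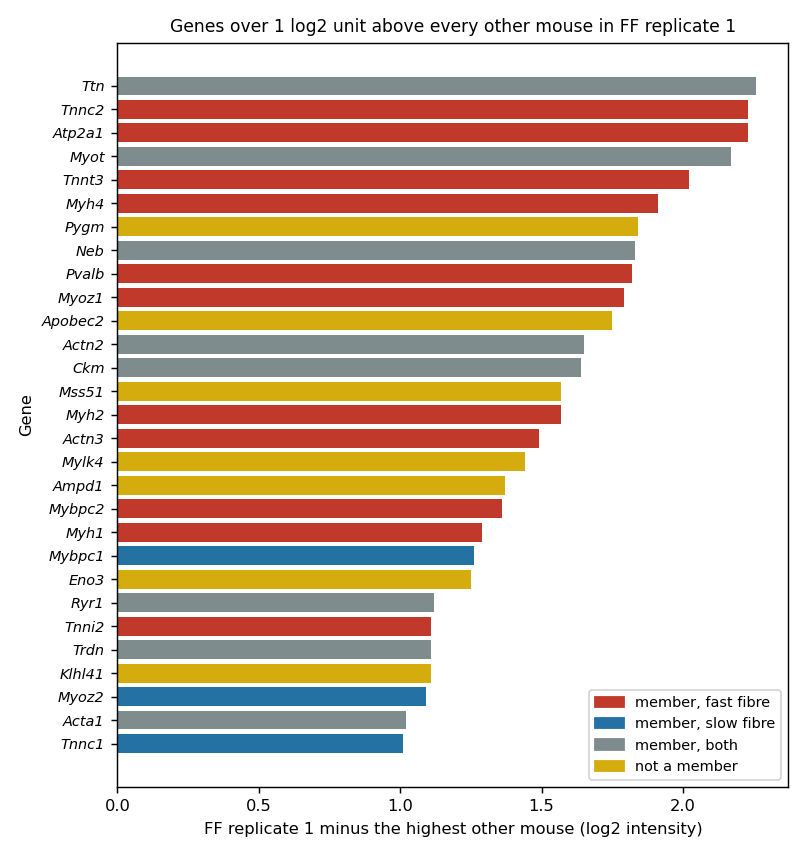
The 29 genes for which FF replicate 1 led the next mouse by over 1 log2 unit, with bars giving that excess in log2 intensity. Ttn leads at 2.26, 22 bars are members, coloured by fibre type, and the 7 yellow bars are other genes led by Pygm at 1.84.

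Thick filament genes were high in FF replicate 1, among them 3 fast myosin heavy chains that lie side by side on chromosome 11. Their transcripts are alike in sequence, so the probe sets of Myh1, Myh2 and Myh4 may read one another in part. Myh4, the IIb heavy chain of the fastest fibres, read 9.61, 6.93, 6.11, 6.56 and 6.73 in FF replicates 1 to 5 and 7.7, 6.1, 5.91, 5.91 and 5.81 in VV replicates 1 to 5. FF replicate 1 led, then VV replicate 1, and the groups overlapped. Myh2, the IIa heavy chain, read 8.05, 5.88, 5.8, 6.48 and 6.45 in FF and 5.93, 5.67, 5.87, 5.93 and 5.96 in VV, in the same order of replicates, which is kept below. Myh1, the IIx heavy chain, read 7.62, 5.79, 5.6, 5.96 and 6.33 in FF and 5.88, 5.6, 5.64, 5.7 and 5.64 in VV. For Myh2 and Myh1 FF replicates 4 and 5 came next, and for Myh2 VV replicate 1 lay among the other VV mice.

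Myh7, the heavy chain of slow fibres and of the ventricle, read 7.36, 6.45, 6.5, 6.67 and 6.89 in FF and 6.74, 6.75, 6.81, 6.82 and 6.78 in VV. FF replicate 1 exceeded the next mouse by 0.47, and FF replicates 2 to 4 were below every VV mouse. Myl1, an alkali light chain of fast myosin, read 11.55, 11.14, 10.8, 11.17 and 11.23 in FF and 10.84, 10.61, 11.06, 10.47 and 10.97 in VV. FF replicates 1, 2, 4 and 5 lay above all VV mice and FF replicate 3 lay among them. Of the remaining thick filament genes, the myosin binding proteins Mybpc2 (fast) and Mybpc1 (slow) exceeded the next mouse by 1.36 and 1.26 in FF replicate 1. The regulatory light chains Mylpf (fast) and Myl2 (slow and ventricular) exceeded it by 0.58 and 0.51, and the slow light chain Myl3 by 0.17.

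Thin filament genes were led by 2 fast troponin subunits and nebulin. Tnnc2, the calcium-binding troponin C of fast fibres, read 9.76, 7.53, 6.58, 6.74 and 6.87 in FF and 6.98, 6.68, 6.65, 6.92 and 6.94 in VV. Here FF replicate 2 came second, and VV replicate 1 was close to VV replicates 4 and 5. Tnnt3, the fast troponin T that ties troponin to tropomyosin, read 10.36, 7.73, 7.41, 7.73 and 8.16 in FF and 8.34, 7.5, 7.43, 7.57 and 7.67 in VV. Neb, the thin filament protein nebulin, read 9.76, 7.13, 6.95, 7.39 and 7.93 in FF and 7.93, 7.02, 6.83, 6.9 and 6.92 in VV. In both genes FF replicate 5 and VV replicate 1 formed a second tier below FF replicate 1.

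Acta1, skeletal actin, read 11.43, 9.61, 9.12, 9.42 and 10.42 in FF and 10.03, 9.68, 9.84, 9.91 and 10.04 in VV. Apart from FF replicates 1 and 5, the FF mice lay below every VV mouse. Tnnc1, the slow and cardiac troponin C, read 7.31, 5.97, 5.87, 6.02 and 6.21 in FF and 6.13, 6.14, 6.11, 6.31 and 6.15 in VV, with FF replicates 2 to 4 again below all VV mice. The inhibitory subunit Tnni2 of fast troponin exceeded the next mouse by 1.11 in FF replicate 1, against 0.26 for its slow counterpart Tnni1 and 0.34 for the slow troponin T, Tnnt1.

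Titin and Z disc genes followed FF replicate 1 as well. Ttn, the spring-like scaffold of the sarcomere, read 9.5, 6.4, 6.03, 6.82 and 7.24 in FF and 6.88, 6.06, 6.09, 6.21 and 6.16 in VV, which placed FF replicate 1 4.8-fold above FF replicate 5, the next mouse. Myot, the Z disc protein myotilin, read 8.48, 5.83, 5.57, 6.24 and 6.31 in FF and 6.06, 5.56, 5.64, 5.91 and 5.78 in VV. FF replicates 4 and 5 and VV replicate 1 were the next mice for both genes. The actin crosslinkers Actn2 and Actn3 exceeded the next mouse by 1.65 and 1.49, and the calcineurin-binding proteins Myoz1 (fast) and Myoz2 (slow) by 1.79 and 1.09. The excess was 0.74 for Xirp2, an actin-binding repeat protein, 0.63 for Tcap, which caps titin, 0.25 for the Z disc adaptor Ldb3 and 0.6 for Myom2, a crosslinker of the M band.

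Calcium genes held both the member with the largest difference between mice and 2 of the 3 members that FF replicate 1 did not lead. Atp2a1, the fast-fibre calcium pump SERCA1, read 11.12, 7.84, 6.9, 7.74 and 8.33 in FF and 8.89, 7.13, 6.94, 7.13 and 6.99 in VV, so that FF replicate 1 was 15.8-fold above the median of the other 9 mice. VV replicate 1 came second, then FF replicate 5, and the other VV mice lay within the range of FF replicate 3 to FF replicate 2. Pvalb, the calcium buffer parvalbumin of fast fibres, read 8.87, 6.13, 5.88, 6.01 and 6.12 in FF and 7.06, 5.94, 5.91, 5.91 and 5.97 in VV. Its 8 remaining values lay between 5.88 and 6.13, which leaves FF replicate 1 and VV replicate 1 as the 2 high mice. Casq1, the fast calcium store protein calsequestrin, read 9.28, 8.05, 7.84, 7.8 and 8.36 in FF and 8.35, 8.29, 8.08, 8.17 and 7.96 in VV, with FF replicate 1 0.93 above the next mouse.

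The release channel Ryr1 exceeded the next mouse by 1.12 and its voltage sensor Cacna1s by 1.0 in FF replicate 1. Trdn, which anchors calsequestrin to the release channel, exceeded it by 1.11 in the probe set used. Trdn had 18 valued probe sets in all, and FF replicate 1 was highest in 15 of them and over 1 unit above the rest in 4. Among the energy and assembly genes, Ckm, the muscle creatine kinase, exceeded the next mouse by 1.64 and Smyd1, a methyltransferase needed for sarcomere assembly, by 0.23. Mb, the oxygen store myoglobin, read 8.76, 6.82, 6.64, 7.48 and 7.78 in FF and 6.91, 6.78, 6.93, 7.11 and 6.88 in VV, with FF replicates 5 and 4 next after FF replicate 1.

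The 3 members that were not highest in FF replicate 1 were Myom1, Casq2 and Sln. Myom1, the M band protein myomesin, read 7.36, 7.98, 7.98, 7.09 and 7.08 in FF and 6.89, 7.53, 7.35, 8.15 and 7.92 in VV. It was highest in VV replicate 4, and FF replicate 1 minus that mouse was -0.79. Across the mice the smooth muscle score, the mean deviation of 12 smooth muscle genes, was highest in VV replicate 4 at 0.88, followed by VV replicate 5 at 0.65 and FF replicate 3 at 0.38. It was lowest in FF replicate 1 at -0.79, VV replicate 1 at -0.66, FF replicate 4 at -0.54 and FF replicate 5 at -0.41. The part of smooth muscle in the Myom1 values was not tested. Casq2, the slow and cardiac calsequestrin, was highest in VV replicate 5 at 6.55, and FF replicate 1 read 6.31. Sln, the SERCA inhibitor sarcolipin, was highest in VV replicate 4 at 6.02, and FF replicate 1 read 5.94. The whole range of Sln over the 9 mice was 0.42 and that of Casq2 0.54.

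**Figure D3:**
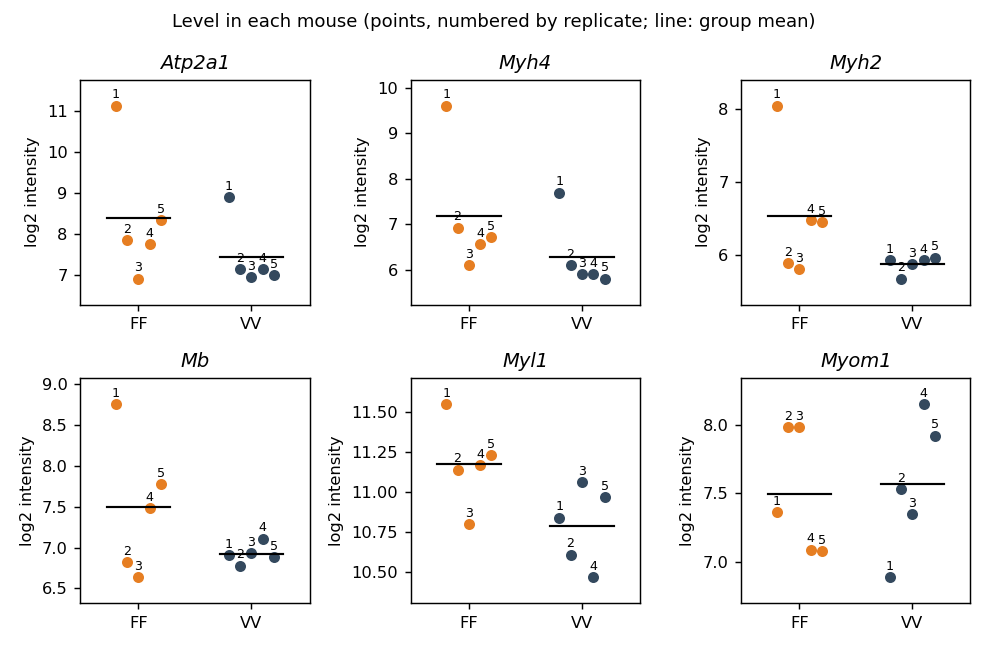
Log2 intensity of 6 genes in each mouse, with points numbered by replicate and lines at the group means. FF replicate 1 is far above the rest for Atp2a1, Myh4, Myh2 and Mb, VV replicate 1 is second for Atp2a1 and Myh4 but not for Myh2 or Mb, and Myom1 peaks in VV replicate 4.

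None of the 40 genes differed between FF and VV by limma at a Benjamini-Hochberg adjusted p of 0.05, in either direction, where 0.753% of all genes did. The percentages of all genes called were 0.621 for higher and 0.132 for lower in FF. Adjusted p-values of the members ran from 0.202 to 0.998. At an unadjusted p of 0.05 the members held 1 call, Myl1, which is 1 of 40 against 16.4% of all genes. No member had groups that did not overlap, against 4.7% of all genes. Without FF replicate 1 there were again 0 members called, beside 0.0865% of all genes, 0.0763% for higher and 0.0102% for lower. Myl1 was once more the single member at an unadjusted p of 0.05, beside 14.7% of all genes, and no member had separate groups, beside 6.17%.

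The differences themselves shifted with that mouse. With all mice 35 of 40 members had a positive estimate (38 after quantile normalisation and 37 after centring arrays on their median), with a median difference of 0.29 log2 units against 0.00081 over all genes. Without FF replicate 1 the estimate was positive for 19 of 40 (23 and 22 under those scalings) and the median was -0.009, against 0.0002 over all genes. Of all genes 50.3% had a positive estimate with all mice and 50.1% without FF replicate 1. The median standard error of a member's difference was 0.27 with all mice and 0.12 without FF replicate 1, and that of all genes was 0.067 and 0.069. The medians describe the list and are no test.

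**Figure D4:**
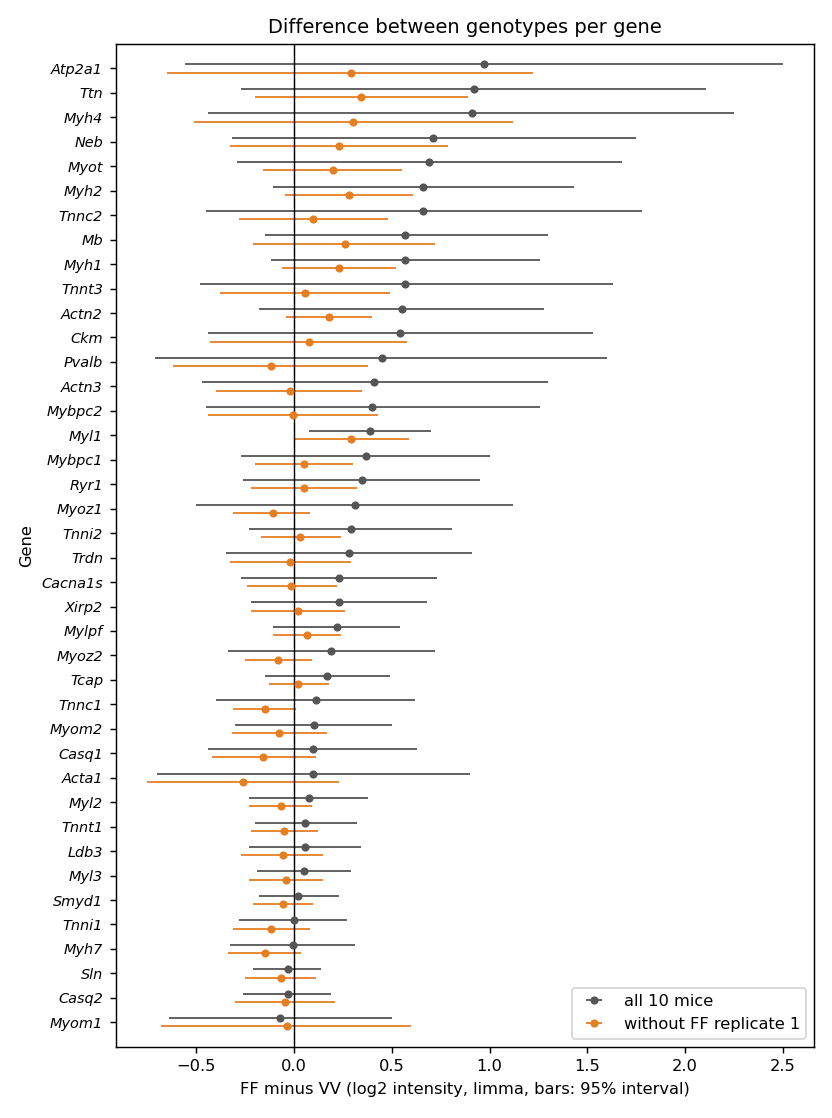
FF minus VV in log2 intensity for each of the 40 genes, with 95% intervals from limma, for all 10 mice in grey and without FF replicate 1 in orange. Points on the grey scale reach 0.97 for Atp2a1, the orange points lie between -0.26 and 0.34, and the interval of Myl1 alone lies above 0 in both.

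Among the thick filament genes the largest differences with all mice were those of Myh4 (0.91, SE 0.61), Myh2 (0.66, SE 0.35) and Myh1 (0.57, SE 0.31), with adjusted p-values from limma of 0.515, 0.391 and 0.411. Without FF replicate 1 they were 0.3, 0.28 and 0.23. Myl1 differed by 0.39 (SE 0.14, 95% interval 0.075 to 0.7), 1.31-fold, with a limma adjusted p of 0.202. Its difference was 0.29 without FF replicate 1, with an adjusted p of 0.337. The differences of Mybpc2, Mybpc1, Mylpf, Myl2, Myl3 and Myh7 were 0.4, 0.37, 0.22, 0.074, 0.051 and -0.0053 with all mice, and -0.0039, 0.05, 0.065, -0.069, -0.039 and -0.15 without the mouse.

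In the thin filament Neb differed by 0.71 (SE 0.47) and Tnnc2 by 0.66 (SE 0.51), with limma adjusted p-values of 0.504 and 0.567, and these became 0.23 and 0.099 without FF replicate 1. Tnnt3 went from 0.57 (SE 0.48) to 0.054. Tnni2 went from 0.29 to 0.032, Tnnt1 from 0.058 to -0.054 and Tnni1 from -0.0014 to -0.12. Tnnc1 moved from 0.11 to -0.15 and Acta1 from 0.098 (SE 0.36) to -0.26 (SE 0.22), the most negative value of the list, with a limma adjusted p of 0.612 without the mouse.

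Ttn differed by 0.92 (SE 0.54, 95% interval -0.27 to 2.11), 1.89-fold, and by 0.34 (SE 0.24, -0.2 to 0.89) without FF replicate 1. Its limma adjusted p-values were 0.441 and 0.547. Myom2 and Myom1 gave 0.1 and -0.07 with all mice, and -0.075 and -0.037 without the mouse. At the Z disc Myot went from 0.69 (SE 0.45) to 0.2 and Actn2 from 0.55 to 0.18. The other Z disc genes went from 0.41 to -0.023 (Actn3), 0.31 to -0.11 (Myoz1), 0.19 to -0.082 (Myoz2), 0.17 to 0.02 (Tcap), 0.23 to 0.018 (Xirp2) and 0.057 to -0.057 (Ldb3).

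Atp2a1 had the largest difference of the list, 0.97 (SE 0.69, 95% interval -0.56 to 2.5), 1.96-fold, with a limma adjusted p of 0.538. Without FF replicate 1 it was 0.29 (SE 0.42, -0.65 to 1.22), with an adjusted p of 0.782. Pvalb, on chromosome 15 like Fob3a, went from 0.45 (SE 0.52) to -0.12. Mb, on the same chromosome, went from 0.57 (SE 0.33) to 0.26, with limma adjusted p-values of 0.431 and 0.601. The release channel complex gave 0.35 for Ryr1, 0.23 for Cacna1s and 0.28 for Trdn, and 0.053, -0.014 and -0.019 without the mouse. Casq1 moved from 0.099 to -0.16, Casq2 from -0.032 to -0.046 and Sln from -0.031 to -0.068. Ckm gave 0.54 and 0.078, and Smyd1 0.022 and -0.059.

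The smaller differences among the other 9 mice had 2 patterns. FF replicate 5 was the highest of the 9 for 16 of the 40 members, where it was highest for 14.1% of all genes. VV replicate 1 was highest for 10 members, against 7.2% of all genes, and 7 of those 10 were fast-fibre genes. FF replicate 3 was lowest for 21 members, where it was lowest for 17.1% of all genes. For 30 of the 40 the range over the 9 mice was under 1 log2 unit, and the share of all genes with so narrow a range was not counted.

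VV replicate 1 was high for some fast-fibre genes and for some genes of both fibre types. Relative to the median of the 9 mice it stood at 1.76 for Atp2a1, 1.58 for Myh4, 1.09 for Pvalb, 0.78 for Mybpc2, 0.77 for Actn3 and 0.67 for Tnnt3 among the fast-fibre genes. Among those of both types it stood at 0.9 for Neb, 0.82 for Ckm and 0.66 for Ttn. It stood at 0.18 for Myh1 and at 0.00 for Myh2 and Mb. Of the 14 fast genes 11 were above the median in VV replicate 1, with a median deviation of 0.26, as were 12 of the 17 genes of both types (0.1), and none of the 9 slow genes was, with a median of -0.061. In FF replicate 5, 13 of the 14 fast genes were above the median (0.27), as were 15 of the 17 genes of both types (0.26) and 6 of the 9 slow genes (0.088). Over all genes the median deviation was -0.013 in VV replicate 1 and 0.0063 in FF replicate 5. The share of all genes above the median was not counted. In VV replicate 1 the slow genes lay close to the median, from -0.13 for Casq2 to 0.00 for Tnnc1. The difference between fibre types was not tested. The deviations of FF replicate 5 included 1.2 for Atp2a1, 1.03 for Ttn, 0.91 for Neb, 0.87 for Mb, 0.63 for Myh1 and 0.62 for Myh4. The high liver score of VV replicate 1 lies beside these values, and its part in them was not tested.

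**Figure D5:**
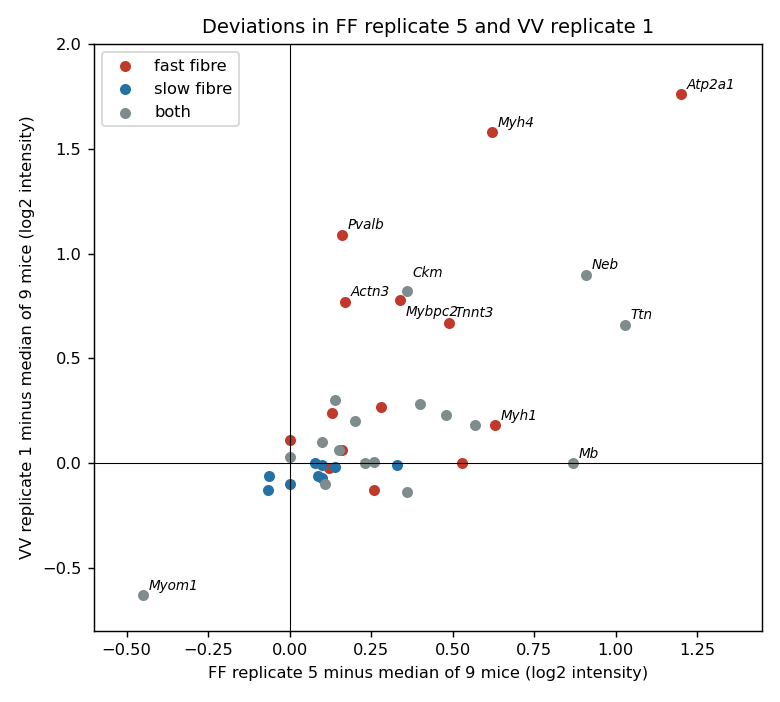
Deviation of each of the 40 genes from the median of the 9 mice other than FF replicate 1, in log2 intensity, for FF replicate 5 (horizontal) and VV replicate 1 (vertical). Atp2a1 is far out in both (1.2 and 1.76), Pvalb and Actn3 are high in VV replicate 1 and Mb in FF replicate 5, and the blue slow-fibre points lie at or below 0 in VV replicate 1.

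With FF replicate 1 and VV replicate 1 both left out, limma called 0 members at an adjusted p of 0.05, beside 0.142% of all genes. At an unadjusted p of 0.05 there were 5 members of 40 (12.5%), Myh4, Ttn, Neb, Actn3 and Atp2a1, beside 15.1% of all genes. VV replicate 1 was the highest VV mouse for each of these 5. Leaving it out lowers their VV means, so the values of this fit are a description. Myh4 was the 1 member whose groups did not overlap, where 8.95% of all genes had separate groups. Its 4 FF mice lay between 6.11 and 6.93 and its 4 VV mice between 5.81 and 6.1, a difference of 0.65 (SE 0.15, 95% interval 0.31 to 1.0), 1.57-fold, with a limma adjusted p of 0.112. Atp2a1 differed by 0.66 (SE 0.24, adjusted p = 0.249 by limma) and Ttn by 0.49 (SE 0.21, adjusted p = 0.316).

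Other muscle genes followed FF replicate 1 in part. It was highest for 20 of 32 other contractile, 10 of 23 excitation and 12 of 18 energy genes, beside 14.1% of all genes. It was over 1 unit above the next mouse for 2, 0 and 3 of them, beside 0.148% of all genes. FF replicate 1 minus the highest other mouse had medians of 0.048, -0.028 and 0.096 in these lists, against -0.16 over all genes. The genes named next, none among the 40 members, were picked by their excess in this mouse, so their height is a description. The 7 genes outside the list that lay over 1 unit above the next mouse were Pygm, the muscle glycogen phosphorylase, at 1.84, Apobec2 at 1.75, Mss51 at 1.57, the myosin kinase relative Mylk4 at 1.44, Ampd1, the muscle AMP deaminase, at 1.37, Eno3, the muscle enolase, at 1.25, and Klhl41, a sarcomere assembly factor, at 1.11. Below the limit came Cmya5 at 0.97, Cox6a2, a striated muscle subunit of cytochrome oxidase, at 0.89 and the muscle phosphoglycerate mutase Pgam2 at 0.88. Limma called 0 of 32 other contractile genes and 0 of 23 excitation genes in either fit. At an unadjusted p of 0.05 there were 0 contractile and 2 excitation genes with all mice, and 2 and 1 without FF replicate 1. Over all genes that share was 16.4% with all mice and 14.7% without FF replicate 1, which is the background for this count in the lists that follow. In these lists the smallest p-values belonged to Cryab (0.19), Tpm1 (-0.35) and Des (-0.48), and to Chrna1 (0.32), Musk (0.18) and Atp2a2 (0.11), the numbers being FF minus VV with all mice.

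Of 18 other muscle energy genes 8 were at an unadjusted p of 0.05 with all mice and 7 without FF replicate 1. After adjustment 3 were higher in FF with all mice and 0 lower, beside 0.621% and 0.132% of all genes, namely Cox7a1 by 2.45 (SE 0.36, limma adjusted p = 0.0267), Gys1 by 0.5 (SE 0.089, adjusted p = 0.0366) and Cox8b by 1.93 (SE 0.37, adjusted p = 0.0427). FF replicate 1 minus the highest other mouse was -1.78 for Cox7a1 and -1.0 for Cox8b. Both belong also to the thermogenic adipocyte list, where 6 of 16 genes were higher in FF and 0 lower, among them Ucp1, the uncoupling protein of brown fat, by 3.96 (SE 0.41, limma adjusted p = 0.00553), Ppargc1a by 0.99 and Cidea by 2.96. Without FF replicate 1 the energy list kept Cox7a1 (adjusted p = 0.0433 by limma), while Gys1 and Cox8b were each at an adjusted p of 0.0927, and the thermogenic list had 4 genes called. At an unadjusted p of 0.05 the thermogenic list held 12 of 16 genes in each fit. The thermogenic score was 0.19 to 1.01 in FF and -0.97 to -0.33 in VV, and its part in the differences of Myl1, Mb or Myh4 was not tested.

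FF replicate 1 was the highest mouse for 6 of 19 regulators of myogenesis and satellite cell genes, beside 14.1% of all genes, and over 1 unit above the others for 0. The mean deviation of the list was 0.15 in this mouse and -0.071 to 0.069 in the other 9. Limma called 0 of the 19 in either fit, with 1 at an unadjusted p of 0.05 in each, and the smallest p-values belonged to Mef2d (0.35, adjusted p = 0.0646), Mef2c (-0.19) and Myf6 (0.25). Of the 6 genes led by FF replicate 1, Myf6, which mature fibres express, exceeded the next mouse by 0.61 and myostatin (Mstn) by 0.59. The rest of the 6 were Pax3 at 0.21, Vgll2 at 0.13, Pax7, the satellite cell factor, at 0.021 and Cdh15 at 0.0025. Among the genes it did not lead were Myod1, Myog and Myf5, at -0.061, -0.12 and -0.076 relative to the top of the other mice. For heart, FF replicate 1 read 6.67 for Myh6 and 6.71 for Nppa, and the highest other mouse read 6.56 and 6.85. It was highest for 3 of the 12 heart genes, over 1 unit above for 0, and limma called 0 of them in either fit, with 2 and 3 at an unadjusted p of 0.05. The smallest p-values were those of Tnnt2 (-0.48), Tbx5 (0.48) and Nkx2-5 (-0.12).

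In the lists of other cell types limma called 0 of 12 smooth muscle genes, 0 of 12 mature adipocyte genes, 0 of 14 liver genes and 0 of 7 nerve genes in either fit. At an unadjusted p of 0.05 these lists held 1, 4, 0 and 1 genes with all mice and 1, 2, 0 and 1 without FF replicate 1. The smallest p-values belonged to Synpo2 (-0.45), Actg2 (-1.43) and Acta2 (-0.32) in smooth muscle, to Lipe (0.12), Pnpla2 (0.13) and Lep (-0.24) in adipocytes, to Ahsg (-1.72), Alb (-0.98) and Apoa1 (-1.43) in liver and to Mbp (0.19), Mal (-0.096) and Pmp22 (0.078) in nerve. FF replicate 1 was over 1 unit above the other mice for none of the genes in these 4 lists.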

How the data were processed

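Arrays of 10 fat samples were compared, 1 per mouse and 5 per genotype. The authors deposited 1 log2 intensity per probe set and array, already normalised, and RMA is the tool named in the submitters' processing notes. The RMA version is not stated there, and no genome build is named. Of 35557 probe sets 25689 had values on all arrays, the other 9868 were left out, and 20777 of these named 1 gene by the platform annotation. Several probe sets of a gene were reduced to the one with the highest mean, which left 19659 genes. Two-sided tests ran in R 4.3.3 with limma 3.58.1 (lmFit, eBayes) over all genes, without covariates, with Benjamini-Hochberg adjustment and a threshold of 0.05, with and without FF replicate 1. Figures used Python 3.11.15 and matplotlib 3.10.9. The procedure was run on simulated data with known changes and independent noise for each gene. That simulation held no outlying mouse, so it does not show how the fit behaves with FF replicate 1. The number of arrays limits the precision.

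The members and lists were chosen with earlier results of these data known. All members are named. Values per mouse are given for the 10 largest differences, and for the 5 most positive and 5 most negative without FF replicate 1. Of each other list 3 genes with the smallest p are named, and 10 genes outside the list by the excess of FF replicate 1. Alternatives were leaving out each mouse or both replicates numbered 1, a replicate block, quantile normalisation, median centring, filters on dim genes, array weights, averaged probe sets, and robust moderation with an intensity trend.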

Additional observations from a re-analysis of the deposited data

Results flagged for a closer look

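Within each group of 5 mice, 26 of the 80 combinations of gene and genotype held 1 mouse whose distance from its nearest neighbour was large for the group's range by Dixon's criterion. Chance gives about 1 in 20 such groups where groups are independent, but these share mice. FF replicate 1 was known to be high for these genes when they were listed, so its part of the count restates the choice of genes, and the total is not read against that rate.

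As a description, FF replicate 1 stood high within FF for 14 genes. Its level was 9.61 for Myh4, 6.25 for Myl2 and 8.4 for Mybpc2 in the thick filament. It was 10.36 for Tnnt3, 8.9 for Tnni2 and 7.31 for Tnnc1 in the thin filament. At the Z disc it was 8.42 for Actn2, 10.11 for Actn3, 8.05 for Myoz1, 6.57 for Myoz2 and 8.48 for Myot. It was 8.87 for Pvalb, 10.46 for Trdn and 9.91 for Ckm.

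VV replicate 1 stood high within VV for 9 genes, at 7.7 for Myh4, 7.04 for Mybpc2, 6.88 for Ttn, 7.93 for Neb, 8.34 for Tnnt3, 8.63 for Actn3, 7.06 for Pvalb, 8.89 for Atp2a1 and 8.27 for Ckm. Myh4, Mybpc2, Tnnt3, Actn3, Pvalb and Ckm were thus picked out in both genotypes, by FF replicate 1 in FF and VV replicate 1 in VV.

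The other 3 were Mybpc1, low in VV replicate 2 at 5.84, Tnnc1, high in VV replicate 4 at 6.31, and Myoz2, high in VV replicate 5 at 5.48. Tnnc1 and Myoz2 were therefore also picked out in both genotypes.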

How the results depend on the processing

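No member passed an adjusted p of 0.05 by limma in any setting run, with the lowest value, 0.0916, for Myl1 without FF replicate 3. The number of members at an unadjusted p of 0.05, 1 in both fits, was 5 with both replicates numbered 1 left out and 5 with the replicate block. In the fit without FF replicate 1 it was 7 with the replicate block, 3 after quantile normalisation and 3 with array weights. Leaving out 1 mouse gave 0 to 5 with all mice and 0 to 7 in the fit without FF replicate 1. Of all genes 16.4% were at that level with all mice, 14.7% without FF replicate 1 and 15.1% with both replicates numbered 1 left out. That share of all genes was not counted in the other settings, so their member counts have no background here. The cause of these changes was not tested. Same-numbered mice had correlations of 0.102, 0.011, -0.083, -0.264 and -0.151 between their deviations from the group means. Those between unlike numbers ran from -0.259 to 0.075 for replicate 1 and from -0.259 to 0.168 for replicate 2. They ran from -0.122 to 0.243 for replicate 3, -0.112 to 0.243 for replicate 4 and -0.112 to 0.226 for replicate 5. Correlations over all genes cannot decide whether same-numbered mice were paired, and pairing was not tested.

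Of 721 combinations of member and setting 55 turned the sign, and 19 members turned in none. Quantile normalisation gave 0.054 for Myh7, 0.052 for Tnni1 and 0.012 for Casq2. Median centring gave 0.016 for Myh7 and 0.019 for Tnni1, and array weights 0.012 for Tnni1. With both replicates numbered 1 left out the differences were -0.1 for Myl2, -0.062 for Myl3, -0.079 for Myom2, -0.23 for Acta1, -0.073 for Tnnt1, -0.16 for Tnnc1, -0.065 for Myoz1, -0.095 for Myoz2, -0.056 for Ldb3, -0.11 for Casq1 and -0.051 for Smyd1.

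Leaving out 1 mouse in turn turned 21 members, 16 of them without FF replicate 1. The ranges were -0.15 to 0.076 for Myh7, -0.069 to 0.14 for Myl2, -0.039 to 0.11 for Myl3, -0.0039 to 0.59 for Mybpc2, -0.24 to 0.076 for Myom1, -0.075 to 0.23 for Myom2, -0.26 to 0.32 for Acta1, -0.054 to 0.12 for Tnnt1, -0.12 to 0.08 for Tnni1, -0.15 to 0.21 for Tnnc1, -0.023 to 0.58 for Actn3, -0.11 to 0.44 for Myoz1, -0.082 to 0.3 for Myoz2, -0.057 to 0.13 for Ldb3, -0.12 to 0.67 for Pvalb, -0.014 to 0.34 for Cacna1s, -0.16 to 0.21 for Casq1, -0.096 to 0.035 for Casq2, -0.068 to 0.018 for Sln, -0.019 to 0.42 for Trdn and -0.059 to 0.088 for Smyd1.

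The filters on dim genes (25th percentile and median) left 31 and 10 members with all mice. The number of all genes called, 148 with all mice and 17 without FF replicate 1, ran from 5 to 383 and from 0 to 59 over the settings.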

Other observations

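The precursors of 7 muscle microRNAs were also measured, a list chosen after the data were seen. Mir133a-2 in FF replicate 1 was 0.135 log2 units above the highest other mouse, Mir1a-2 was 0.039 above it and Mir208a 0.027 above it. FF replicate 1 was not the highest mouse for Mir1a-1 (-0.085), Mir133a-1 (-0.065), Mir206 (-0.04) or Mir499 (-0.034). The levels of all 7 in this mouse lay between 3.877 and 4.802, near the bottom of the scale of the arrays, whose lowest value was 3.56.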
